A study of Mus musculus with 8 samples.

Results

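This account describes 45 genes of the BMP, activin and TGF-beta pathway in mouse embryos at E8.5, out of 20660 genes that the array measures through a RefSeq transcript. The genes were chosen by their names as ligands, receptors, Smads, secreted antagonists and Id targets of the pathway, from a list of names with no cut-off on a measured value. They are read by 57 probes of 55681. Each gene is described by the probe with the highest mean signal over all 8 embryos, and 44 of the 45 could be tested.

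All 8 embryos were *Eed* wt/wt with *Eed* wt/wt mothers, of the Eedl7Rn5-1989SB line on a C57bl6/129 background. *Eed* encodes a core component of Polycomb Repressive Complex 2, which places the H3K27me3 mark, and the allele of the line is hypomorphic. In one group, 4 embryos had *Eed* wt/wt fathers (called WT fathers). In the other, 4 had *Eed* hypo/wt fathers (called HET fathers), so the embryos of both groups had the same genotype and differed in that of the father. The comparison therefore asks whether a reduced dose of *Eed* in the male germline was followed by a difference in embryos that did not inherit the allele. Each group held 2 females and 2 males according to the labels. How many males sired each group is not settled by the sources used here, and 3 of the embryos with WT fathers share the first part of their embryo code. The main fit treats the 4 embryos of a group as independent, which embryos of 1 sire or litter would not be. A limma fit that lets embryos with a shared code be correlated put that correlation at 0.54, from these 3 embryos. All 4 arrays of a group lay on 1 slide and each slide held 1 group, so that slide and father genotype cannot be told apart.

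BMPs, activins, inhibins and the TGF-betas are related secreted dimers. BMPs, activins and the TGF-betas bind pairs of type I and type II serine/threonine kinase receptors, which phosphorylate receptor-regulated Smads. *Smad1*, *Smad5* and *Smad9* carry mainly BMP signals and *Smad2* and *Smad3* carry activin and TGF-beta signals, each with the shared partner *Smad4*, while *Smad6* and *Smad7* inhibit the pathway and are induced by it. In the embryo at this stage, BMP signals are known for their part in the heart, the allantois and primordial germ cells, the surface ectoderm and the dorsal neural tube, and antagonists such as noggin and chordin limit their reach.

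The promoters printed here are those of the members with the lowest p-values between the father groups (*Tgfb1* and *Bmp8b*) and of 3 Id genes, the textbook targets through which BMP signalling is read. Each is the 250 bases directly before the RefSeq transcription start (GRCm38.p6), written 5′ to 3′ on the strand of the gene. Capitals mark GGCGCC, a GC-rich element bound by BMP Smads, and CAGAC or its other strand GTCTG, the Smad box.

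*Tgfb1*, chr7:25686752-25687001, + strand: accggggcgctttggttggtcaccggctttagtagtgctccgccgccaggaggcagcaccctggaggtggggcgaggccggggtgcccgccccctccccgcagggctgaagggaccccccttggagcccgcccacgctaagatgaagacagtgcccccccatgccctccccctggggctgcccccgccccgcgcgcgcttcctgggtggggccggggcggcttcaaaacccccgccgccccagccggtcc

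*Bmp8b*, chr4:123104911-123105160, + strand: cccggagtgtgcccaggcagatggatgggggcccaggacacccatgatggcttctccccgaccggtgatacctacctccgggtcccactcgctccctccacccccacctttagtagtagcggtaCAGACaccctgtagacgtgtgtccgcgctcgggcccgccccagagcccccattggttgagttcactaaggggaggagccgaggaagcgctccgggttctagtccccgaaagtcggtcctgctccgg

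*Id2*, chr12:25096093-25096342, - strand: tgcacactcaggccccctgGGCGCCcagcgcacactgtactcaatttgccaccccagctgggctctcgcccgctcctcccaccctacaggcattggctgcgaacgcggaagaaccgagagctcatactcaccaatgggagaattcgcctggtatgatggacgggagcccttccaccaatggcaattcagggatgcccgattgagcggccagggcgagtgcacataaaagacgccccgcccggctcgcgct

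*Id3*, chr4:136143572-136143821, + strand: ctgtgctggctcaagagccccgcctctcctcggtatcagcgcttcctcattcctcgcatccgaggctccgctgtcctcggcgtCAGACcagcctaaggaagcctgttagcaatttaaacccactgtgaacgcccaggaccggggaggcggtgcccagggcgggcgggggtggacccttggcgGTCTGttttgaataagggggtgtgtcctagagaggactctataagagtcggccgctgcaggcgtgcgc

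*Id4*, chr13:48260866-48261115, + strand: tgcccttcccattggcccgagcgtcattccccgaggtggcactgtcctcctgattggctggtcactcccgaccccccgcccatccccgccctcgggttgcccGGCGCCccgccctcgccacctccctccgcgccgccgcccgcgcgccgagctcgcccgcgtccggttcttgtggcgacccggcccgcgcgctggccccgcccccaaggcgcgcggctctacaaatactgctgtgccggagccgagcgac

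The *Tgfb1* window held neither motif, *Bmp8b* held 1 CAGAC, *Id2* and *Id4* held 1 GGCGCC each, and *Id3* held 2 Smad boxes, 1 on each strand. Promoters were found for 33 of the 45 genes, 39 in all. GGCGCC, which reads the same on both strands, was present in 9 of these 39 (23.1%) and in 9.59% of 32851 promoters of the same length. The Smad box on either strand was present in 18 of the 39 (46.2%) and in 42.2% of all promoters, and the 2 motifs can share no more than 1 base at an end. The member promoters were also richer in G and C, with a median of 65.2% against 52.4%, and that part of the difference was not tested. A match describes these letters and is not a bound site.

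Signals are given as log2 of the processed intensity minus the 75th percentile of the same array, so that 0 is the level of that percentile and 1 unit is 2-fold. Levels of different genes come from different probes and were not compared. A probe was well above background where the scanner software marked it so. Between 29204 and 39545 probes were well above background per array, with the 2 highest counts in WT father replicate 1 (39545) and HET father replicate 3 (38888) and 35499 or fewer in the other 6. The lowest signal marked as well above background was -6.40 to -5.64 on the arrays of WT fathers and -5.48 to -4.57 on those of HET fathers, so that the limit of detection itself differed between the groups, and the negative controls had a median log2 intensity of 2.08 to 2.31 and 2.50 to 3.17. Local background was 133 on the array of HET father replicate 4 and 30 to 51 on the other 7. The markers of neural tissue, heart, paraxial mesoderm, gut endoderm and endothelium that were looked up were well above background on all 8 arrays. The 5 markers of primitive erythroid cells that were looked up were as well. So were 6 of 6 markers of yolk sac endoderm, with a summed signal of 404 to 579 times the 75th percentile with WT fathers and 480 to 526 with HET fathers, and 5 of 6 markers of trophoblast and decidua, with 20.8 to 47.4 and 21 to 47.8. *Tpbpa*, of the spongiotrophoblast, was not well above background on any array. *Eed* itself was 4.65 ± 0.05 with WT fathers and 4.55 ± 0.04 with HET fathers (SD, n = 4 each), a difference of -0.10 ± 0.06 (SE).

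Nearly the whole pathway was detected. Of the 45 genes, 41 were well above background in all 8 embryos, and the ligand genes *Bmp3* (7 embryos), *Inhba* (6), *Inhbb* (5) and *Bmp10* (2) in some. *Bmp10*, a ligand of the developing heart, was well above background in 2 embryos, both with WT fathers, and was not tested. *Bmp10* lay at -4.86, -6.02, -6.61 and -4.97 with WT fathers and at -7.44, -6.06, -4.56 and -6.16 with HET fathers, and the groups overlapped widely. The brightest of the 8, HET father replicate 3, was not marked as well above background, on the array with the highest limit of detection. In bulk samples such as these, fewer cells of a type and less RNA per cell cannot be told apart.

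**Figure D1:**
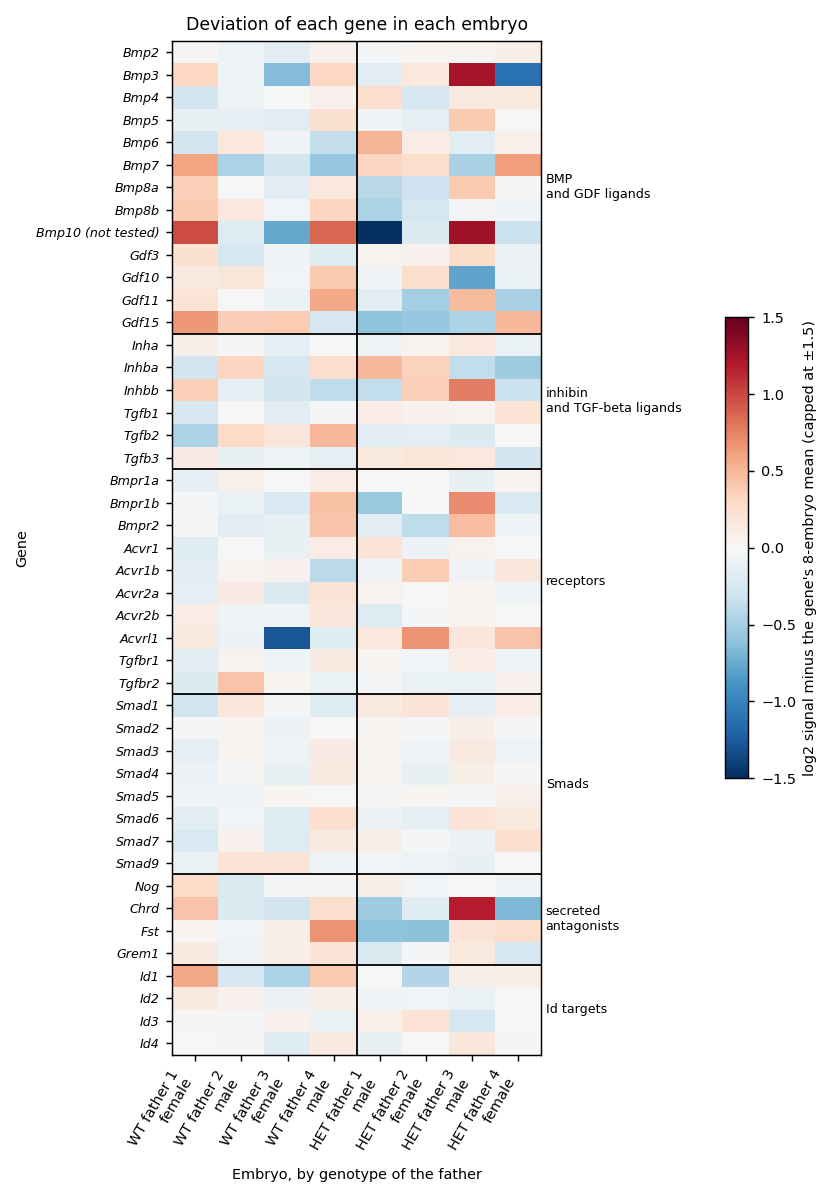
Each row is 1 of the 45 genes, grouped by role, and each column 1 embryo, named by the genotype of the father, the replicate number and the sex. The colour is the log2 signal minus the mean of that gene over the 8 embryos, capped at 1.5 in either direction. WT father replicate 4 and HET father replicate 3 hold the highest value of 11 and 12 of the tested genes, and most Smads are pale in every embryo.

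No gene of the pathway differed between the father groups by the threshold used for the arrays, an adjusted p under 0.01 with at least 2-fold. In limma, 0 of the 44 tested genes passed, against 0 of all 33096 tested probes (0%), and every tested gene had an adjusted p of 1.00. Without adjustment, 2 of the 44 genes (4.55%) had a p under 0.05, 1 higher and 1 lower with HET fathers, beside 4.4% of all tested probes, 2.11% higher and 2.28% lower. The share among the pathway genes was thus near the background. Groups did not overlap for 2 genes (4.55%), and for 3.23% of all tested probes. The median change of the 44 genes was 0.02 on the log2 scale and that of all tested probes was 0.003, and the median size of a change was 0.10 in both.

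These 8 arrays limit the size of difference that they leave possible gene by gene. The 95% interval of the difference lay within 2-fold for 38 of the 44 genes (86.4%), against 80.1% of all tested probes, and within 1.41-fold for 26. The 6 genes with wider intervals were *Bmp3*, *Bmp7*, *Gdf15*, *Acvrl1*, *Chrd* and *Fst*. The median SD within a group was 0.18 among the 44 genes and 0.21 among all tested probes. With the arrays shifted by their median in place of the 75th percentile, the median change of all tested probes was -0.10 and that of the pathway genes was -0.09, and 35 of the 44 genes were lower with HET fathers in place of 19. The direction of a change smaller than about 0.1 therefore depended on the scaling, and the values below are those with the 75th percentile.

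**Figure D2:**
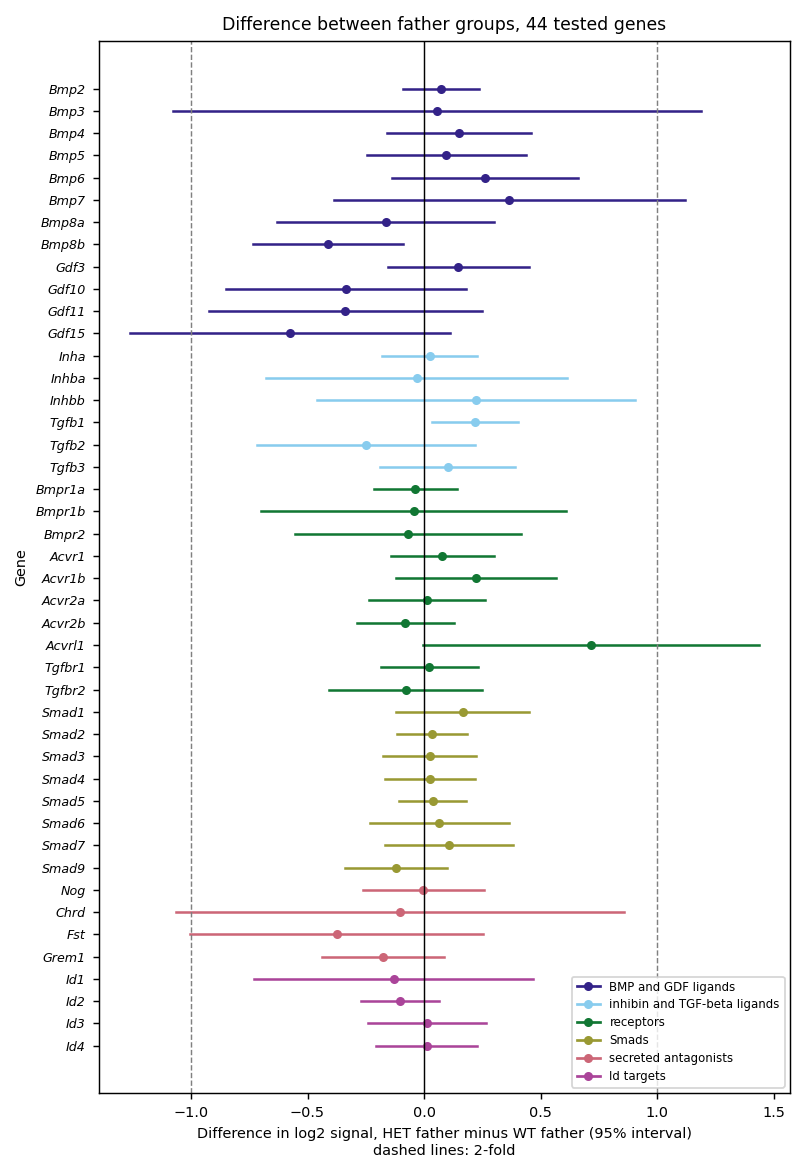
Points show the difference in log2 signal between embryos of HET and WT fathers (HET minus WT, n = 4 each) for the 44 tested genes, coloured by role, and bars show the 95% interval from limma. Dashed lines mark 2-fold. The intervals of *Tgfb1* and *Bmp8b* do not reach 0, that of *Acvrl1* reaches it narrowly, and the 8 Smads have short intervals around 0.

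Among the BMP and GDF ligands, 12 of 13 genes were tested, of which 7 were higher and 5 lower with HET fathers and 1, *Bmp8b*, had an unadjusted p under 0.05. *Bmp8b* is known for roles in germ cell formation and spermatogenesis. It was -3.54, -3.78, -3.98 and -3.62 in the embryos of WT fathers and -4.41, -4.19, -3.97 and -3.99 in those of HET fathers. WT father replicate 3 lay just below the highest embryo with a HET father, and the other 3 embryos with WT fathers were above every embryo with a HET father. The difference was -0.41 ± 0.14 (SE, 95% interval -0.73 to -0.09, unadjusted p = 0.0182 and adjusted p = 1.00 in limma), or 1.33-fold. It was -0.33 between the females and -0.49 between the males. With a shift by the median the difference was -0.52, and with quantile normalization it was -0.69, with unadjusted p-values of 0.135 and 0.125. After normexp it was -0.21 (unadjusted p = 0.152). Its paralogue *Bmp8a* differed by -0.16 ± 0.20, and since both genes are similar in sequence their probes may share signal.

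*Gdf15*, a ligand induced by cellular stress, had the largest difference of the ligands and did not pass. It was -3.12, -3.39, -3.39 and -4.02 with WT fathers and -4.37, -4.34, -4.23 and -3.28 with HET fathers. In each group replicate 4 lay nearer to the other group than to its own, and the groups overlapped. The difference was -0.58 ± 0.29 (95% interval -1.26 to 0.11, unadjusted p = 0.0886 in limma). Without WT father replicate 4 it was -0.75 (unadjusted p = 0.0367 in limma) and without HET father replicate 4 it was -0.83 (unadjusted p = 0.00639 in limma), but these are the embryos that lay nearest to the other group. Leaving out any of the other 6 embryos gave -0.45 to -0.55, with unadjusted limma p-values of 0.156 to 0.199. After normexp it was -0.38.

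*Bmp7*, a ligand of kidney, eye and skeletal development, split the embryos by neither label alone. It was 3.05, 1.99, 2.18 and 1.89 with WT fathers and 2.78, 2.73, 1.98 and 3.09 with HET fathers. WT father replicate 1 and 3 embryos with HET fathers were high, and the other 4 were low. The difference between father groups was 0.37 ± 0.32 (unadjusted p = 0.292 in limma). It was 0.26 with a shift by the median, 0.20 where embryos that share a code formed a random block, and 0.22 to 0.62 with 1 embryo left out at a time (unadjusted p from 0.0512 to 0.545). Without both WT father replicate 1 and HET father replicate 3, the embryos whose arrays had the most probes above background, it was 0.85 (unadjusted p = 0.000943, adjusted p = 0.407 in limma), but this leaves out 2 embryos that lie with the opposite group for *Bmp7*. *Bmp3*, which antagonises other BMPs, varied most of the 44 tested genes, at -4.11, -4.50, -5.07 and -4.11 with WT fathers and -4.58, -4.26, -3.18 and -5.54 with HET fathers. Its father groups overlapped fully, with a difference of 0.06 ± 0.48.

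**Figure D3:**
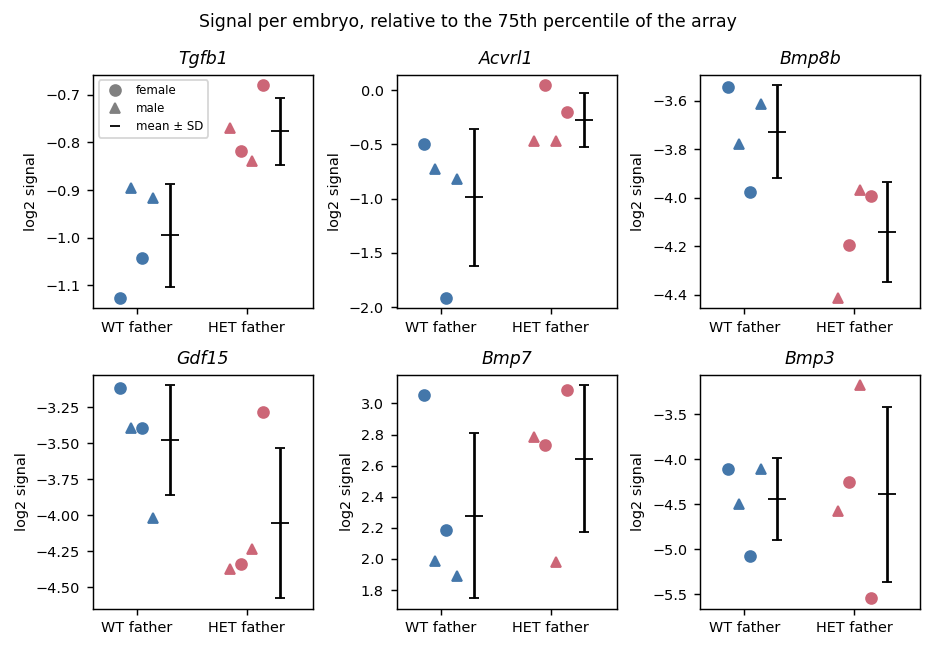
Log2 signal per embryo, relative to the 75th percentile of the array, for 6 genes by genotype of the father (blue, WT; red, HET; circles, females; triangles, males), with the mean and SD of each group (n = 4) beside the points. The vertical scales differ between genes. The groups of *Tgfb1* and *Acvrl1* do not overlap, and WT father replicate 3 lies far below the other embryos for *Acvrl1*.

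The other ligands of this branch had overlapping groups. *Bmp4*, the main BMP of the extraembryonic ectoderm, allantois and lateral mesoderm, was 3.56, 3.77, 3.84 and 3.91 with WT fathers and 4.11, 3.60, 3.98 and 3.99 with HET fathers, a difference of 0.15 ± 0.13. *Bmp2*, needed for the heart and amnion, differed by 0.07 ± 0.07, with all 8 embryos between 1.05 and 1.29. *Bmp5* and *Bmp6*, close relatives of *Bmp7*, differed by 0.10 ± 0.15 and 0.26 ± 0.17. The differences of *Gdf3*, a relative of nodal, *Gdf10* and *Gdf11*, which patterns the axial skeleton, were 0.15 ± 0.13, -0.34 ± 0.22 and -0.34 ± 0.25. None of these genes passed.

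All 6 inhibin and TGF-beta ligands were tested, 4 higher and 2 lower with HET fathers, and 1, *Tgfb1*, had an unadjusted p under 0.05. *Tgfb1* encodes a TGF-beta of blood and vessel development that acts early in the yolk sac. It was -1.13, -0.90, -1.04 and -0.92 with WT fathers and -0.77, -0.82, -0.84 and -0.68 with HET fathers. Every embryo with a HET father was above every embryo with a WT father, though the nearest embryos of the groups lay close together. The difference was 0.22 ± 0.08 (95% interval 0.03 to 0.40, unadjusted p = 0.0257 and adjusted p = 1.00 in limma), or 1.16-fold. It was 0.34 between the females and 0.10 between the males. With a shift by the median it was 0.11, the unadjusted p was 0.765 and the groups overlapped. The unadjusted p was also above 0.05 without WT father replicate 1 (0.0626) or 3 (0.0646) and without HET father replicate 1 (0.0534) or 4 (0.0688), with differences of 0.17, 0.20, 0.22 and 0.19.

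*Tgfb2*, with roles in heart and neural crest derivatives, differed by -0.25 ± 0.20, and *Tgfb3*, known from palate and lung, by 0.10 ± 0.12. The second *Tgfb2* probe gave -0.17. *Inha*, the inhibin alpha subunit, was even in the 8 embryos, between -3.31 and -3.00. *Inhba* and *Inhbb*, the subunits of the activins, were low, well above background in all 4 embryos with WT fathers and in 2 and 1 of those with HET fathers, where the limit of detection was higher. Their signals differed by -0.03 ± 0.28 and 0.22 ± 0.29, and neither passed.

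Of the 10 receptor genes, 5 were higher and 5 lower with HET fathers and 0 had an unadjusted p under 0.05, beside the 4.4% of all tested probes. Groups did not overlap for *Acvrl1*, the type I receptor (ALK1) of endothelium. It was -0.50, -0.72, -1.92 and -0.82 with WT fathers and -0.47, 0.05, -0.47 and -0.20 with HET fathers. WT father replicate 3 was more than 1 unit below every other embryo, and the lowest embryos with HET fathers were only just above WT father replicate 1. The difference was 0.72 ± 0.31 (95% interval -0.01 to 1.44, unadjusted p = 0.0513 and adjusted p = 1.00 in limma). It fell to 0.41 without WT father replicate 3, where the unadjusted p was 0.0406. Under the alternatives the unadjusted limma p lay on both sides of 0.05. It was 0.148 with a shift by the median, 0.222 with embryos that share a code as a random block and 0.121 without HET father replicate 2. With quantile normalization it was 0.0470, with normexp 0.0342 and without WT father replicate 1 0.0298. The 3 endothelial markers looked up, *Kdr*, *Cdh5* and *Pecam1*, had a median difference of 0.04 and a summed signal of 11 to 16.4 with WT fathers and 11.7 to 16.3 with HET fathers.

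The other receptors differed little between the groups. The BMP type I receptors *Bmpr1a* and *Bmpr1b* differed by -0.04 ± 0.08 and -0.04 ± 0.28, and the type II receptor *Bmpr2* by -0.07 ± 0.21. For the receptors shared by activins and BMPs, the differences were 0.08 ± 0.09 for *Acvr1*, 0.01 ± 0.11 for *Acvr2a* and -0.08 ± 0.09 for *Acvr2b*. *Acvr1b*, the activin type I receptor, differed by 0.22 ± 0.15. The TGF-beta receptors *Tgfbr1* and *Tgfbr2* differed by 0.02 ± 0.09 and -0.08 ± 0.14.

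The 8 Smads were the most even of the 6 role groups, with a median SD within father groups of 0.11. Their differences ran from -0.12 (*Smad9*) to 0.17 (*Smad1*), and the 95% interval of each lay within 1.41-fold. 7 of the 8 were higher with HET fathers, but with a shift by the median only 1 was, and 4 were after normexp background correction. *Smad5*, a BMP Smad, had the lowest SD within groups of the tested genes, 0.05, and *Smad2*, which carries activin signals, had 0.06. *Smad4*, the common partner, differed by 0.03 ± 0.08 and *Smad3* by 0.02 ± 0.08. The inhibitory *Smad6* and *Smad7* differed by 0.07 ± 0.13 and 0.11 ± 0.12.

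The 4 secreted antagonists were all lower with HET fathers, also with a shift by the median and with quantile normalization, but 1 of the 4 was higher after normexp, and 0 had an unadjusted p under 0.05. *Fst*, the follistatin gene, whose product binds activins, was 2.79, 2.72, 2.85 and 3.44 with WT fathers and 2.17, 2.14, 2.96 and 3.03 with HET fathers. HET father replicates 1 and 2 were low and replicates 3 and 4 lay among the embryos with WT fathers, and the difference was -0.38 ± 0.27. *Grem1*, which antagonises BMPs in the limb, differed by -0.18 ± 0.11 and *Nog*, encoding noggin, by -0.0027 ± 0.11. *Chrd*, encoding chordin, differed by -0.10 ± 0.41, and HET father replicate 3, at -2.48, was the highest of its 8 embryos.

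The Id genes, inhibitors of differentiation that BMP signalling induces, were 2 higher and 2 lower with HET fathers, and 0 of the 4 had an unadjusted p under 0.05. *Id1* was 4.43, 3.61, 3.40 and 4.26 with WT fathers and 3.86, 3.42, 3.95 and 3.96 with HET fathers, and varied more than the other 3 in both groups. Its difference was -0.13 ± 0.26. The differences of *Id2*, *Id3* and *Id4*, whose promoters are printed above, were -0.10 ± 0.07, 0.01 ± 0.11 and 0.01 ± 0.09.

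A second probe was present for 12 genes and could be tested for 10 of them. It gave the same direction as the brightest probe in 4 and the opposite in 6, with no unadjusted p under 0.05 and a largest gap of 0.31, for *Smad3*. The second *Bmp4* probe was well above background on 0 arrays and gave no value.

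Whether the embryos with more *Bmp4* also had more of its targets was asked over the 8 embryos, with 5 targets and exact permutation p-values. Pearson's r was 0.03 for *Id1* (p = 0.947), -0.47 for *Id2* (p = 0.241) and -0.40 for *Id3* (p = 0.333). For *Smad6* and *Smad7*, r was 0.54 (p = 0.171) and 0.56 (p = 0.154), with Spearman's rho of 0.50 (p = 0.216) and 0.64 (p = 0.0962). Spearman's rho was 0.05 (p = 0.935), -0.48 (p = 0.243) and -0.19 (p = 0.665) for the 3 Id genes, and adjusted over the 5 targets by Benjamini-Hochberg no p of either kind was below 0.402. Without WT father replicate 1 and HET father replicate 2, whose *Bmp4* was farthest from the median, r was 0.46, -0.40, 0.01, 0.18 and 0.30 in the same order. The sign for *Id2* and *Id3* turned with a shift by the median, where r was 0.88 and 0.87 for these genes and 0.94 and 0.95 for *Smad6* and *Smad7*. The scaling of an array is shared by both genes of a pair. With the mean of each father group removed, r was 0.12 for *Id1*, -0.30 for *Id2*, -0.46 for *Id3*, 0.51 for *Smad6* and 0.48 for *Smad7*, and within 1 group of 4 embryos r was not computed.

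**Figure D4:**
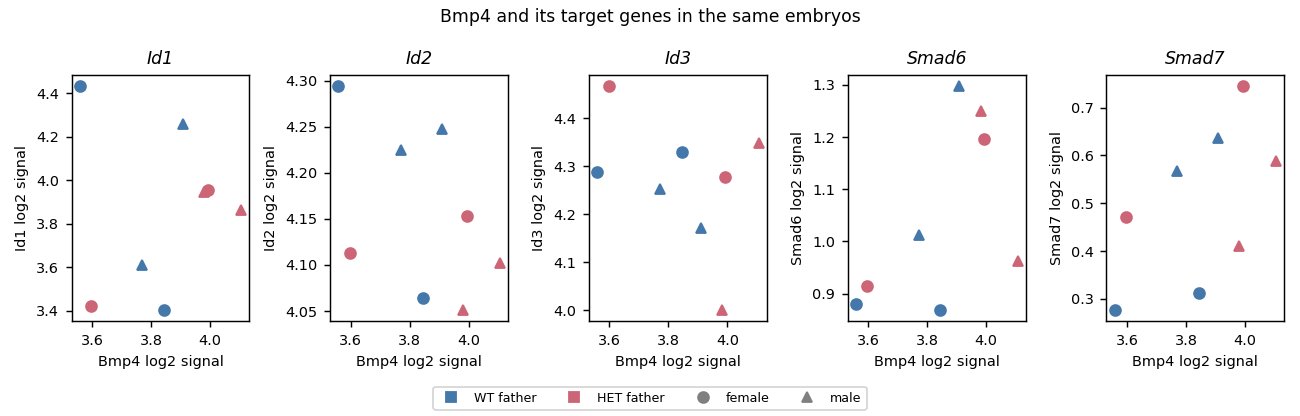
Log2 signal of *Bmp4* (horizontal) against 5 of its target genes (vertical) in the 8 embryos, blue for WT and red for HET fathers, circles for females and triangles for males. The points of *Smad6* and *Smad7* rise loosely with *Bmp4* (r 0.54 and 0.56), and those of the Id genes do not.

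No gene of the pathway was called between the sexes. With father genotype in the fit, 0 of the 44 genes were called between the sexes, while 11 of all tested probes were (0.0332%). Without adjustment, 4 genes (9.09%) had a p under 0.05 and were higher in males, beside 1.28% of all tested probes, and 0 were higher in females, beside 2% of them. In these limma fits *Acvr1* was higher in males by 0.18 ± 0.07, *Acvr2a* by 0.21 ± 0.08, *Tgfbr1* by 0.17 ± 0.07 and *Smad3* by 0.17 ± 0.06, each with an adjusted p of 1.00 and a change of at most 1.15-fold. In total 32 of the 44 genes (72.7%) were higher in males, against 54.5% of all tested probes. The embryos with the most highest values over the 44 genes, WT father replicate 4 and HET father replicate 3, are both male. WT father replicate 4 was also the lowest of the 8 embryos for each of the 5 primitive erythroid markers looked up. In it *Gata1* was 2.40 and *Klf1* 0.70, beside medians over the 8 embryos of 3.25 and 1.73. HET father replicate 3 was not low, at 3.14 and 2.16. The part of erythroid cells in these values was not tested. With quantile normalization 32 genes were higher in males, beside 46.4% of all tested probes, and after normexp 30, beside 47.4%, with 3 at an unadjusted p under 0.05 in each. With a shift by the median, 15 were higher in males, beside 21.7% of all tested probes, and 0 had an unadjusted p under 0.05. With no filter on low signals 0 had such a p as well, and with 1 embryo left out at a time, 0 to 3 genes were higher in males at that threshold. The count was 0 without WT father replicate 3 and without WT father replicate 4.

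The values by embryo show what these 4 genes rested on. *Smad3* was 3.02 and 3.07 in the females and 3.19 and 3.27 in the males of WT fathers, and 3.10 and 3.08 in the females and 3.19 and 3.29 in the males of HET fathers. *Tgfbr1* was 2.66, 2.77, 2.79 and 2.77 in the females and 2.89, 2.98, 2.88 and 2.95 in the males. *Acvr1* was 2.44, 2.51, 2.53 and 2.62 in the females and 2.62, 2.73, 2.81 and 2.67 in the males. *Acvr2a* was -1.25, -1.32, -1.11 and -1.18 in the females and -0.99, -0.91, -1.05 and -1.08 in the males. At the brightest probe of each of the 4 genes every male lay above every female, by a hair in *Acvr1*. The sexes overlapped at the second *Acvr1* probe, with 0.09 to 0.15 in the females and 0.10 to 0.59 in the males. *Smad3*, *Tgfbr1* and *Acvr2a* also have a second probe, for which values by sex are not given here. Counting *Smad2*, the brightest probes of 5 of the 44 genes (11.4%) had every male above every female, beside 1.18% of all tested probes. The reverse held for 0 of the 44 genes and for 1.39% of all tested probes. *Bmp7* was lower in males by more, -0.60 ± 0.25 (unadjusted p = 0.0515 in limma), and *Bmp3* differed by 0.65 ± 0.45 (unadjusted p = 0.198 in limma), and neither passed.

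Of the 37 tested marker genes of tissues and stages, 4 had an unadjusted p under 0.05 between the sexes in the same limma fit, each with an adjusted p of 1.00. Over all tested probes, 1.28% had such a p and were higher in males, and 2% were higher in females. The endothelial *Kdr* and *Cdh5* were higher in males by 0.38 ± 0.11 and 0.28 ± 0.09, while the other endothelial marker looked up, *Pecam1*, differed by 0.004 ± 0.07. *Gata1*, of erythroid cells, and *Apoa4*, of yolk sac endoderm, differed by -0.57 ± 0.16 and -0.62 ± 0.19, lower in males. Their part in the values of the pathway genes was not tested.

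The difference between the father groups was compared between the sexes by an interaction term. In limma, 0 of the 44 genes passed an adjusted p under 0.05, as did 0% of all tested probes, and 0 had an unadjusted p under 0.05, beside 2.23% of them. With 2 embryos for each father group and sex the term is measured loosely. The difference had the same sign in females and males for 23 of the 44 genes.

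Of 58 other genes of the pathway (further ligands, co-receptors, extracellular modulators, Smad regulators and targets), 51 were tested. With HET fathers 1 was higher and 0 lower at an unadjusted p under 0.05, beside 2.11% and 2.28% of all tested probes. That gene was *Gdf2*, which encodes BMP9, the circulating ligand of the *Acvrl1* receptor. *Gdf2* was -2.83, -2.76, -2.56 and -2.55 with WT fathers and -2.43, -2.34, -2.17 and -2.26 with HET fathers. Its groups did not overlap, as was so for 3.23% of all tested probes. The difference of *Gdf2* was 0.38 ± 0.10 (95% interval 0.15 to 0.60, unadjusted p = 0.00516 and adjusted p = 1.00 in limma). It was 0.40 between the females and 0.36 between the males. The median change over the 51 genes was 0.07.

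Of the 37 tested marker genes, 2 had an unadjusted p under 0.05 between the father groups, beside 4.4% of all tested probes. *Prl8a2*, a prolactin family gene of the decidua, was 1.99, 2.92, 1.56 and 2.31 with WT fathers and 0.72, 0.31, -2.61 and 0.54 with HET fathers. Every embryo with a WT father was above every embryo with a HET father, and groups did not overlap for 3.23% of all tested probes. The difference of *Prl8a2* was -2.45 (unadjusted p = 0.0127 and adjusted p = 1.00 in limma). Of the 5 tested genes on the trophoblast and decidua list it was the 1 with an unadjusted p under 0.05. *Prl3d1*, of trophoblast giant cells, differed by -0.91 (unadjusted p = 0.262), and both genes were lowest in HET father replicate 3. The others on the list did not follow, with *Hand1* at 0.21 ± 0.16, *Prl3b1* at 0.02 ± 0.10 and *Gcm1* at -0.06 ± 0.52. The summed signal of the list was carried largely by *Gcm1*, of the labyrinth trophoblast, at 3.23 to 5.17, and says little of decidua. *Pax3*, of paraxial mesoderm and dorsal neural tube, differed by -0.22 ± 0.08 (unadjusted p = 0.0316 and adjusted p = 1.00 in limma). The other paraxial mesoderm markers did not follow it, with *Meox1* at 0.33 ± 0.26, *Tbx6* at 0.01 ± 0.12 and *Tcf15* at -0.04 ± 0.10. The part of such tissues in the values of *Tgfb1*, *Bmp8b* and *Acvrl1* was not tested.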

How the data were processed

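RNA of 8 whole E8.5 embryos was hybridised to Agilent 8x60K arrays with 1 dye, 1 array per embryo. The authors extracted the spots with Agilent Feature Extraction (11.0.1.1, per the submitters' processing notes). Its deposited intensities had local background subtracted and spatial trends removed, without scaling from array to array. A deposited matrix of all arrays has an intensity for each spot and was used as an alternative. The deposited flags, of the unit other, mark spots that are outliers or well above background. Columns of sample values left unused numbered 0.

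Here control spots were left out and the 75th percentile of each array was subtracted from the log2 intensities. Outlier-flagged spots were then left out and the spots of a probe averaged. Probes well above background on at least 4 arrays and not in the lowest 20% by mean were tested with limma (3.58.1, R 4.3.3, with version 1.17.8 of the data.table package) on all 33096 of them, with Benjamini-Hochberg adjustment, and called where they changed 2-fold or more with an adjusted p under 0.01, as in the study's methods, which name no percentile and no test. SE, 95% intervals and p-values come from the moderated fit. The number of arrays limits the precision, and p-values measure the spread between these embryos. Symbols were matched by RefSeq accession to RefSeq gene names of GRCm38.p6, whose gene coordinates were not used, and promoters came from RefSeq in that build. The fit was tested on simulated data. Over 10 runs, the median share called was 0% of 1.41-fold, 18% of 2-fold, 61% of 4-fold and 79% of 8-fold changes. Summaries and plots used Python 3.11.15, pandas 2.3.3, numpy 2.4.6, scipy 1.17.1 and matplotlib 3.10.9.

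The members and gene lists were chosen with earlier results of these data known. Values per embryo are given for members whose groups do not overlap, with an unadjusted p under 0.05 or with a difference of at least 0.5 on the log2 scale between fathers or sexes, or whose second probe has the opposite sign with an unadjusted p under 0.05 (0 members). *Bmp10*, *Bmp4*, *Fst* and *Id1* were added after their values were seen. Of the other pathway genes those with an unadjusted p under 0.05 are named. Alternatives were a shift by the median, quantile normalization, normexp (offset 50) on the median spot signal, the deposited matrix, no filter or a stricter one, a fit with sex, replicate number or embryo code, array weights, the mean over probes, and embryos left out.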

Additional observations from a re-analysis of the deposited data

Results flagged for a closer look

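In 3 of 88 groups of 4 embryos, where chance gives about 4.4 (about 1 in 20), 1 embryo stood apart from the other 3 of its group, with a gap to the nearest of them that took most of the range of the group. *Bmp5* with WT fathers was -1.01 in replicate 4 and -1.41 to -1.35 in the other 3 embryos, a gap of 0.849 of the range. *Gdf15* with HET fathers was -3.28 in replicate 4 and -4.37 to -4.23 in the others, a gap of 0.871 of the range. *Tgfb3* with HET fathers was -1.58 in replicate 4 and -1.15 to -1.12 in the others, a gap of 0.944 of the range.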

How the results depend on the processing

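The number of pathway genes called between the father groups, between the sexes and in the interaction was 0 under every alternative run for it. The counts at an unadjusted p under 0.05 and of groups that do not overlap, both 2, moved more. With a shift by the median both were 0, the median change of the genes was -0.088 and the count of other pathway genes was 0 in place of 1. The count of groups apart was 1 with quantile normalization and 1 with normexp. The count at an unadjusted p under 0.05 was 1 with no filter (*Bmp8b*), 5 with array weights (*Tgfb1*, *Bmp8b*, *Acvrl1*, *Bmp7* and *Gdf11*) and 5 without WT father replicate 1 and HET father replicate 3, where 6 genes had groups apart. Over all tested probes that share was 4.4% here, 9.63% with no filter, 9.24% with array weights, 7.07% without that pair and 9.35% without HET father replicate 3. The counts of 4 and 5 thus came with a higher background, but so did the count of 1 with no filter. Without WT father replicate 1 or 4, 1 gene was higher and 2 lower at that threshold, beside 3.83% and 4.18%. Without HET father replicate 2, 2 were higher and 1 lower, beside 3.24%. With 1 embryo left out at a time the count lay between 1 (without HET father replicate 1) and 4 (without HET father replicate 3), the count of groups apart between 2 and 4 (4 without WT father replicate 3 or without HET father replicate 2, 3 or 4), that of other pathway genes between 1 and 4 (4 without HET father replicate 3 or 4, and 2 without WT father replicate 2, 3 or 4 or HET father replicate 2), and the median change between -0.02 and 0.06. The share of all tested probes with groups apart is given only for the main fit, at 3.23%. Smaller groups separate more often by chance, so the counts of groups apart with embryos left out cannot be set against that share. Whether the counts of groups apart under any alternative differ from their background was not tested. The correlation of *Bmp4* with a shift by the median was 0.88 with *Id2* and 0.87 with *Id3* (exact permutation p = 0.00112 and 0.00375). It was 0.94 with *Smad6* and 0.95 with *Smad7* (exact permutation p = 0.00221 and 0.000818). A shift by the median moves both genes of a pair by the same amount on each array. Relative to the 75th percentile, the array medians ran from -4.58 to -3.13. The cause of the changes between alternatives was not tested. Over the alternatives 20 of the 44 genes never changed sign and 24 did in some.

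The replicate numbers did not pair the embryos, since the deviations of embryos with the same number correlated at -0.55, -0.05, -0.59 and -0.15. With the replicate block, 1 gene (*Acvrl1*) had an unadjusted p under 0.05 in place of 2. The SD within groups was highest for *Bmp10* (1.02), *Bmp3* (0.76) and *Chrd* (0.64).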
